A study of Mus musculus with 10 samples.

Results

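Ionotropic glutamate receptors are the ion channels that carry most fast excitatory signals in the brain. Their subunit genes were taken from a named list of 10 genes, by gene symbol in the table that assigns probe sets to genes. Of these, 9 genes were found, with 14 of the 12488 probe sets of the array. The missing gene, Grin1, was not analysed here. A probe set is a group of short oligonucleotides on the array that together report 1 transcript. The channels are tetramers of 3 classes. AMPA receptors, built from the products of Gria1 to Gria4, carry the fast current, and the Gria2 subunit makes them poorly permeable to calcium once its RNA has been edited. NMDA receptors pair the Grin1 product with Grin2 subunits that set their kinetics; Grin2b and Grin2d are known as early subunits of the rodent brain, whereas Grin2a and the cerebellar Grin2c become prominent after birth. Kainate receptors, to which Grik2 belongs, modulate transmission before and after the synapse.

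RNA of whole mouse brain at postnatal day 0 had been hybridised to 10 one-colour arrays. XmO animals, which have 39 chromosomes and by their name a single maternal X, and XX_Paf females with 40 chromosomes were bred from the cross C57BL/6J x C3H/Paf and gave 3 arrays per group (XmO 1, 2 and 7; XX_Paf 1, 2 and 3). XpO animals, with 39 chromosomes and a single paternal X, and XX_InX females with 40 were bred from In(X)/C3H x C57BL/6J and gave 2 arrays per group (XpO 15 and 18; XX_InX 1 and 19). Whether an array holds 1 brain or a pool is not stated in the labels. The p-values may measure technical spread only, as they would if the arrays of a group shared 1 pool. Each comparison across crosses also carries the difference in cross.

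The arrays shared a trimmed mean intensity of 500.3 and had pairwise Pearson correlations of 0.927 to 0.969, taken over the log2 values of the tested probe sets, which are not independent replicates. Xist, the RNA of the inactive X, was at 21.3 to 49.9 on the XO arrays and at 1673 to 4082 on the XX arrays, as the labels require. XpO 15 and XpO 18 stood far apart on the first principal component, which took 25.6% of the variance: XpO 18 was at 27.4, beyond both XX_InX arrays (9.54 and 22.4), and XpO 15 at -15.0, among the XX_Paf arrays (-23.6 to -9.77). Many of the estimates that moved widely with 1 array are given without it as well. All 8 neuron markers on the array were above background on every array. Of the 9 markers of radial glia and astrocytes, 6 were above it on every XmO array, 7 on every XX_Paf array, 9 on both XpO arrays and 7 on both XX_InX arrays.

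The genes lie on separate stretches of the genome. In assembly GRCm38.p6 Gria1 is on chromosome 11 (57011571 to 57330244), Gria2 on chromosome 3 (80681450 to 80804227), Gria4 on chromosome 9 (4417893 to 4796234) and Grik2 on chromosome 10 (49093680 to 49790161). Grin2a is on chromosome 16 (9567901 to 9996083), Grin2b on chromosome 6 (135713221 to 136173615), Grin2c on chromosome 11 (115249169 to 115267297) and Grin2d on chromosome 7 (45831883 to 45871194). Gria3 is the 1 member on the X chromosome (41400819 to 41678601), the chromosome whose number differs between the groups. RefSeq promoter windows (GRCm38.p6) were matched for 5 of the 9 genes. The 250 bases before the transcript start that RefSeq's table gives are shown for the AMPA subunit genes among them. Gria2 was taken because the widest group difference among the tested probe sets below is its own, and Gria4 as its relative. The Gria4 window adjoins the 5′ end of the gene span given above, whereas the Gria2 window belongs to a start 1392 bases inside its span. Both read 5′ to 3′ on the minus strand, and capitals mark CpG dinucleotides.
Gria2, chr3:80802836-80803085: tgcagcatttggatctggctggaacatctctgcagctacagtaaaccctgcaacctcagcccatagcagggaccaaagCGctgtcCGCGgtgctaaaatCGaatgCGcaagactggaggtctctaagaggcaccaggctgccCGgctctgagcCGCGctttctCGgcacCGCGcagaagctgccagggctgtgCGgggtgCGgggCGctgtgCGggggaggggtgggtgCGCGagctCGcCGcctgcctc
Gria4, chr9:4796235-4796484: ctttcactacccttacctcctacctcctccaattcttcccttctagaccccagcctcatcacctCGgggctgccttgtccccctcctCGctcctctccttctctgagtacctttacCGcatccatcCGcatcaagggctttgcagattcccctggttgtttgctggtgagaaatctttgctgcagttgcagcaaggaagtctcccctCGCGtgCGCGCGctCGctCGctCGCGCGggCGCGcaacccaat
The Gria2 window holds 19 CpG dinucleotides and the Gria4 window 16, against a median of 6 over 32851 windows of the same length; 19.7% of those windows hold at least 19 and 25.4% at least 16. Grik2 has 20, Grin2c 15 and Grin2d 9. Neither the letters TATAAA nor GGGCGG, searched on both strands, are in the Gria2 or Gria4 window (12.4% and 32.7% of all windows hold them), while Grin2c has 3 matches to GGGCGG. These are counts of letters and say nothing of which factors bind.

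Of the 14 probe sets, 12 passed the filter on dim probe sets (mean log2 intensity at or above the 30th percentile) and were tested. The other 2 could not be told from background, taken on each array as the brightest of 9 Y-linked probe sets (33.6 to 137), for which these animals have no template. Grin2a was at 28.2, 27.3 and 23.2 on XmO 1, 2 and 7, at 10.2, 58.1 and 29.4 on XX_Paf 1, 2 and 3, at 71.4 and 33.2 on XpO 15 and 18, and at 20.4 and 79.0 on XX_InX 1 and 19. It was above background on 1 of 10 arrays, XpO 15. The Gria2 probe set 162076_r_at was below background on 10 of 10 arrays, at 0.400 to 15. The 12 tested probe sets were above it on every array except Gria4 on XX_InX 19. Because probes differ in how brightly they hybridise, intensities were compared between groups within a probe set, and not between subunits.

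**Figure D1:**
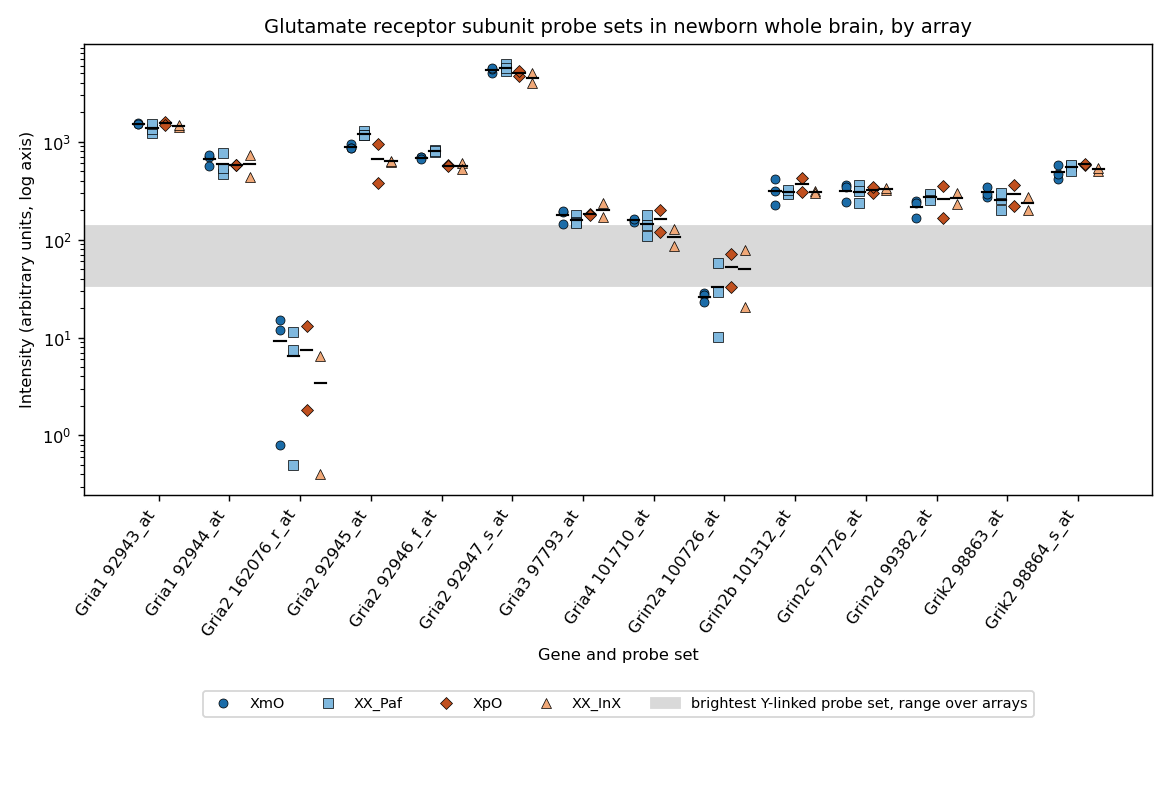
Intensity (arbitrary units, log axis) of the 14 probe sets of 9 subunit genes on each of the 10 arrays; symbols are arrays by group, short bars are group means, and the grey band is the range over arrays of the brightest Y-linked probe set. Grin2a and Gria2 162076_r_at lie in or below the band, and the 3 brighter Gria2 probe sets are highest in XX_Paf.

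The first comparison asked whether having 1 X chromosome changes receptor subunit RNA, over both crosses with equal weight. For no subunit did it pass the test: 0 of the 12 probe sets passed limma over the 8695 probe sets tested, where the share that passed was 0.0115%, and 0 of the 12 had p under 0.05 before adjustment, against 2.60% of all. Estimates were higher in XO for 9 and lower for 3, with a median log2 fold change of 0.03 over the 12 and of 0.00 over all probe sets. They ran from -0.26 for Gria2 92945_at to 0.37 for Gria4. No member separated XO from XX arrays in the same direction within both crosses, as 0.851% of all probe sets did.

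Gria3 is the X-linked AMPA subunit gene, and as background, in XX cells 1 X is largely silenced. Its intensity was 193, 144 and 195 in XmO 1, 2 and 7, and 179.5, 153 and 148 in XX_Paf 1, 2 and 3. It was 183 and 180.0 in XpO 15 and 18, and 169.6 and 234 in XX_InX 1 and 19. The XO and XX arrays overlapped in both crosses. The log2 fold change of XO against XX was 9.56e-04, with a 95% interval from -0.38 to 0.39, that is from 0.767-fold to 1.31-fold (limma, adjusted p = 0.9995). An exact two-sided permutation test of karyotype within crosses gave p = 1, where 0.0167 was the smallest that its 120 arrangements allow. Within crosses the estimate was 0.14 for XmO against XX_Paf (interval -0.35 to 0.62; 0.28 without XmO 2 and 0.061 without XmO 7) and -0.13 for XpO against XX_InX (interval -0.73 to 0.46; 0.10 without XX_InX 19). The difference between those effects, 0.27, did not pass (SE 0.35, limma adjusted p = 0.916) and was 0.038 without XX_InX 19 and 0.51 without XX_InX 1.

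**Figure D2:**
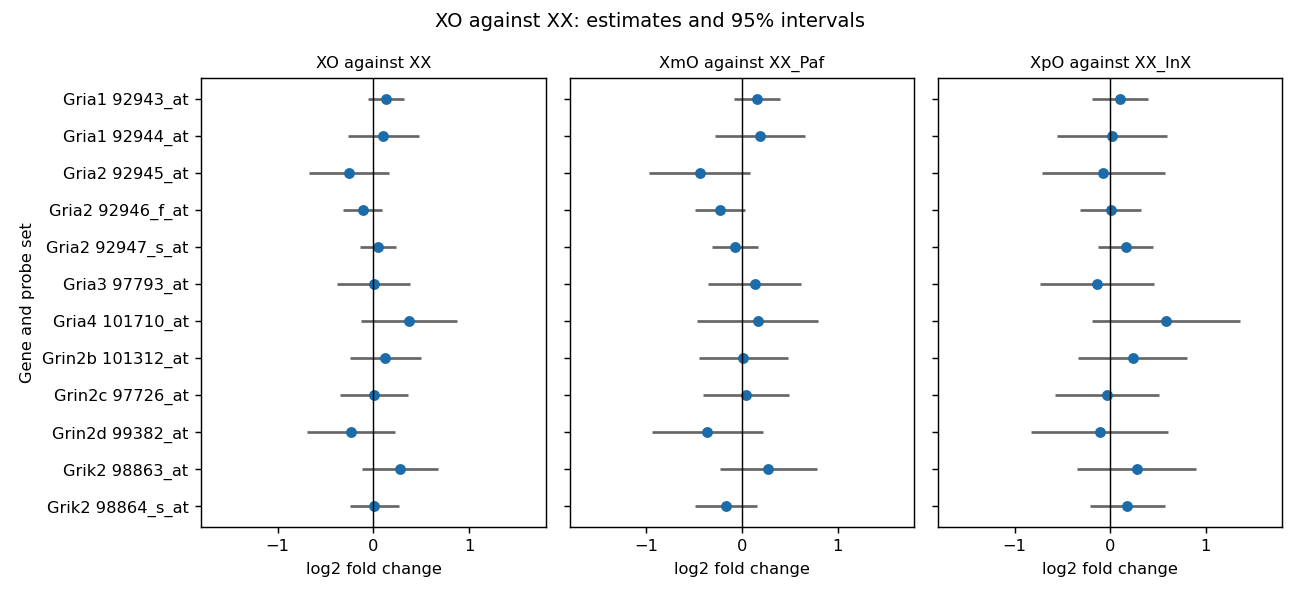
Log2 fold changes of the 12 tested probe sets (points) with 95% intervals (lines) in XO against XX over both crosses, in XmO against XX_Paf and in XpO against XX_InX. All the intervals cross 0, and that of Gria3 in the left panel runs from -0.38 to 0.39.

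Gria1, which encodes the AMPA subunit most studied in synaptic plasticity, gave narrow intervals on its brighter probe set. On 92943_at it was at 1502, 1559 and 1504 in XmO 1, 2 and 7, and at 1228, 1362 and 1511 in XX_Paf 1, 2 and 3. In the In(X) cross it was at 1608 and 1499.8 in XpO 15 and 18, and at 1412 and 1485 in XX_InX 1 and 19. The XmO arrays lay close together and overlapped XX_Paf through XX_Paf 3, while both XpO arrays were above both XX_InX arrays. The log2 fold change of XO against XX was 0.13 (interval -0.06 to 0.32), and of XpO against XX_InX 0.10 (SE 0.13; 0.051 without XpO 15 and 0.15 without XpO 18). The second probe set, 92944_at, was more scattered, at 438 to 765 over the 10 arrays, with an estimate of 0.10 (interval -0.27 to 0.47).

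Gria4 had the highest estimate of the 12 in XO against XX. Its intensity was 157, 151 and 164 in XmO 1, 2 and 7, and 141, 108 and 179 in XX_Paf 1, 2 and 3. In the In(X) cross it was 202 and 120.5 in XpO 15 and 18, and 127.5 and 85.5 in XX_InX 1 and 19. The groups overlapped in both crosses, and XX_InX 19 was under its background of 97.5. The log2 fold change was 0.37 over both crosses (interval -0.13 to 0.87; 0.19 without XpO 15, 0.23 without XX_InX 19 and 0.56 without XpO 18) and 0.58 in XpO against XX_InX (interval -0.19 to 1.35; 0.95 without XpO 18, 0.21 without XpO 15 and 0.29 without XX_InX 19).

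Among the NMDA subunits, Grin2b had 412, 313.5 and 227 in XmO 1, 2 and 7, against 300.3, 294 and 322 in XX_Paf 1, 2 and 3. It had 309.5 and 422 in XpO 15 and 18, against 312 and 302 in XX_InX 1 and 19. XX arrays of both crosses stayed between 294 and 322, and XO arrays spread on both sides of them, with a log2 fold change of 0.12 (interval -0.24 to 0.49). It was 0.013 without XpO 18 and 0.021 without XmO 1, and 0.24 without XpO 15 or XmO 7. Grin2c ranged from 238.5 to 364 over the 10 arrays, with group means of 315 ± 63.5 (SD, n = 3) in XmO, 306 ± 63.2 (n = 3) in XX_Paf, 323 ± 33.4 (n = 2) in XpO and 329.8 ± 10.5 (n = 2) in XX_InX. These group means were within the spread of single arrays, and the estimate for XO against XX was 0.00 (interval -0.35 to 0.36).

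Grin2d was at 247, 238 and 167 in XmO 1, 2 and 7, and at 279, 292 and 254 in XX_Paf 1, 2 and 3. It was at 166 and 354 in XpO 15 and 18, and at 297 and 229.7 in XX_InX 1 and 19. Every XmO array was below every XX_Paf array, and the XpO arrays lay on either side of XX_InX. The log2 fold change was -0.36 in XmO against XX_Paf (interval -0.94 to 0.22, limma adjusted p = 0.887; -0.18 without XmO 7). Over both crosses it was -0.23 (interval -0.69 to 0.23), and 0.04 without XpO 15.

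The kainate subunit gene Grik2 was read by 2 probe sets. On 98864_s_at it was at 418, 473 and 581 in XmO 1, 2 and 7, and at 560.2, 575 and 503 in XX_Paf 1, 2 and 3. It was at 585 and 599 in XpO 15 and 18, and at 501.3 and 545 in XX_InX 1 and 19. Both XpO arrays were above the arrays of every other group, with XmO 7 (581) and XX_Paf 2 the nearest. The estimate was 0.01 over both crosses (interval -0.25 to 0.26), 0.18 in XpO against XX_InX (SE 0.18) and -0.28 in XmO against XpO (SE 0.17, limma adjusted p = 0.969). On 98863_at intensities ran from 200.1 to 362, and XO overlapped XX within both crosses. Every XmO array was above both XX_InX arrays, the nearest being XmO 1 (274.8) and XX_InX 1 (270.7). The estimate was 0.28 in XO against XX (interval -0.12 to 0.68; 0.096 without XpO 15, 0.17 without XX_InX 19 and 0.46 without XpO 18).

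Within the Paf cross, XmO was set against XX_Paf, and the groups did not overlap for 3 of the 12 probe sets, Grin2d and a pair from Gria2, each lower in XmO; 6.97% of all probe sets were lower in this way. None of the 12 passed (limma, 0.0230% of all called; without adjustment, 0 of the 12 and 5.53% of all had p under 0.05). In the In(X) cross, XpO was above XX_InX without overlap for 2 of the 12, Gria1 92943_at and Grik2 98864_s_at, and 11.3% of all probe sets were higher in this way. Again 0 passed (limma, 0.0115% of all called; without adjustment, 0 of the 12 and 3.38% of all had p under 0.05). When the effect of monosomy in one cross was subtracted from that in the other, 0 of the 12 passed (limma, 0.0230% of all; 0 and 5.91% at an unadjusted p under 0.05), with estimates from -0.41 to 0.27, and for 0 of them did the arrays of both crosses separate in opposite directions (2.02% of all).

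Among the tested probe sets, Gria2, the subunit gene that sets calcium permeability, had the widest ratio of highest to lowest group mean on 1, 92945_at (1.93). Its other tested probe sets, 92946_f_at (1.42) and 92947_s_at (1.26), were below Gria4 (1.52). On all 3 tested Gria2 probe sets XX_Paf was highest. On 92946_f_at the intensity was 692, 701.5 and 674 in XmO 1, 2 and 7, and 829, 783 and 809.9 in XX_Paf 1, 2 and 3. On the same probe set it was 577 and 559 in XpO 15 and 18, and 611 and 525 in XX_InX 1 and 19. Every XX_Paf array was thus above every XmO array, and every XmO array above every array of the In(X) cross. XpO and XX_InX overlapped and had the same mean to within their spread (568 ± 12.7 and 568 ± 60.5, SD, n = 2 each).

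On 92945_at Gria2 was at 939, 873 and 866 in XmO 1, 2 and 7, and at 1282, 1170.5 and 1183 in XX_Paf 1, 2 and 3. It was at 945 and 379 in XpO 15 and 18, and at 620.1 and 637 in XX_InX 1 and 19. The order XX_Paf, XmO, XX_InX was again free of overlap, but XpO 15 lay just above XmO and XpO 18 below all other arrays, a 2.50-fold gap within 1 group. Of all tested probe sets, 4.07% had the XpO arrays at least that far apart. The other Gria2 probe sets did not show that gap, with XpO 15 at 1.03 times XpO 18 on 92946_f_at and at 0.890 times on 92947_s_at. The table of probe sets gives 92945_at and 92946_f_at the same source record, so they are not independent readings; in this array's naming the suffix _f marks probes shared with a family of similar sequences and _s probes shared between transcripts.

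On the brightest probe set, 92947_s_at, Gria2 was at 5099, 5489 and 5635 in XmO 1, 2 and 7, and at 5243, 6159 and 5649 in XX_Paf 1, 2 and 3. It was at 4741 and 5325 in XpO 15 and 18, and at 5038 and 4012 in XX_InX 1 and 19. Here XX_Paf was above XX_InX without overlap, and XmO overlapped XX_Paf and XpO.

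**Figure D3:**
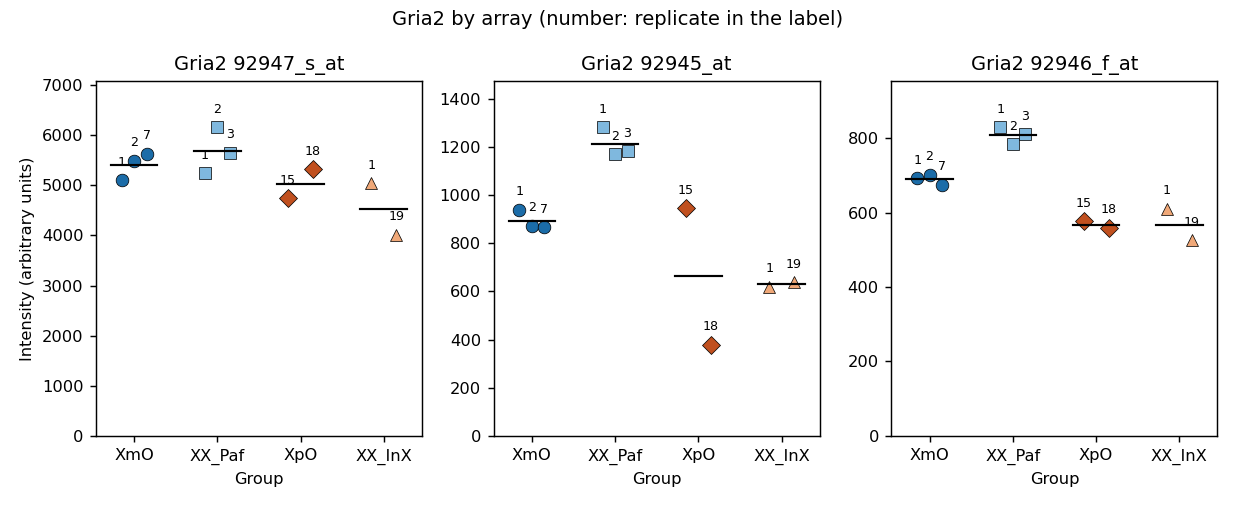
Intensity (arbitrary units, axes from 0) of the 3 tested Gria2 probe sets on each array; points are arrays with their number in the label, bars are group means. XX_Paf has the highest mean on each probe set, and the XpO arrays 15 and 18 are far apart on 92945_at (945 and 379) but not on the others.

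XX_Paf against XX_InX, the comparison of the crosses in XX females, gave the widest Gria2 estimates. The log2 fold change was 0.95 on 92945_at (SE 0.27, 1.93-fold, limma adjusted p = 0.190), 0.51 on 92946_f_at (SE 0.13, 1.43-fold, limma adjusted p = 0.184) and 0.34 on 92947_s_at (SE 0.12, 1.26-fold, limma adjusted p = 0.283). None passed, though all 3 intervals lay above 0 (0.36 to 1.53, 0.22 to 0.80 and 0.07 to 0.60). The last estimate was 0.17 without XX_InX 19 and 0.50 without XX_InX 1. These were the 3 of the 12 probe sets that did not overlap between the groups and the 3 with an unadjusted p under 0.05; over all probe sets 17.6% were higher without overlap, 13.8% had p under 0.05 before adjustment and 0.0805% passed. The XpO arrays enter this test through the shared estimate of spread: 92945_at passed without XpO 15 (limma adjusted p = 0.0161), without XpO 18 (0.0132) and when just the XX arrays were fitted (0.0356), each time with the same fold change. Over the arrays left out in turn its adjusted p ran from 0.0132 to 0.581, while 92946_f_at stayed at 0.109 to 0.410 and 92947_s_at at 0.208 to 0.595.

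In XmO against XpO, where the remaining X is maternal in one group and paternal in the other, Gria2 had higher estimates in XmO, of 0.58 on 92945_at (SE 0.27, limma adjusted p = 0.969), 0.28 on 92946_f_at (SE 0.13, limma adjusted p = 0.969) and 0.10 on 92947_s_at (SE 0.12, limma adjusted p = 0.998). The first rested on 1 array: it was 1.24 and passed without XpO 15 (limma adjusted p = 0.0117), and it was -0.08 without XpO 18. On 92946_f_at the estimate was 0.30 and 0.26 without those arrays, and XmO was above XpO without overlap, as for 8.59% of all probe sets. Grik2 98864_s_at was the 1 of 12 that was lower without overlap (8.83% of all). In all 0 of 12 passed (limma, 0.0115% of all called; without adjustment, 0 of 12 and 4.83% of all had p under 0.05). Gria3 had -0.05 here (interval -0.59 to 0.49) and -0.32 in XX_Paf against XX_InX (interval -0.86 to 0.22; -0.087 without XX_InX 19 and -0.55 without XX_InX 1).

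Against the XX females of their own cross, XmO had lower Gria2 estimates, of -0.44 on 92945_at (interval -0.97 to 0.09), -0.23 on 92946_f_at (interval -0.49 to 0.03) and -0.07 on 92947_s_at (interval -0.31 to 0.17). In XpO against XX_InX the estimates were -0.07, 0.00 and 0.16, the first being 0.59 without XpO 18 and -0.73 without XpO 15. The difference between these monosomy effects was -0.37 on 92945_at (SE 0.38; -1.03 without XpO 18 and 0.29 without XpO 15), -0.23 on 92946_f_at (SE 0.19) and -0.23 on 92947_s_at (SE 0.17), and did not pass on any of them (limma, adjusted p = 0.897, 0.875 and 0.875).

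**Figure D4:**
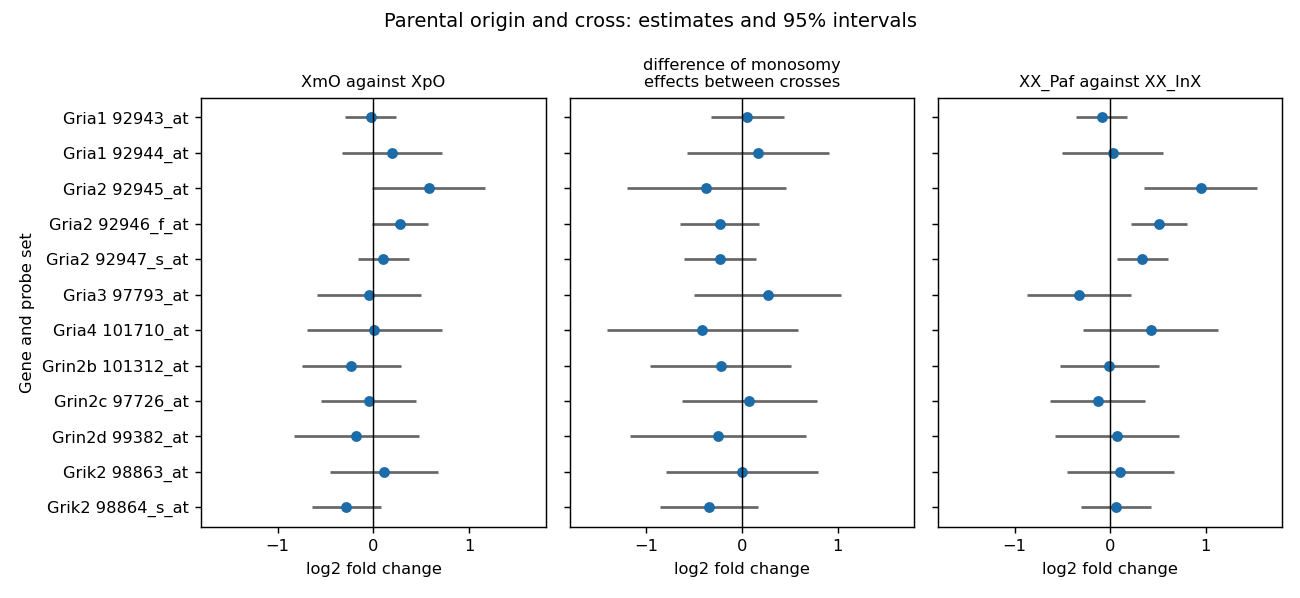
Log2 fold changes of the 12 tested probe sets (points) with 95% intervals (lines) in XmO against XpO, in the difference of monosomy effects between crosses and in XX_Paf against XX_InX. In the right panel the intervals of the 3 Gria2 probe sets lie above 0, and those of the other 9 cross it.

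Blood markers, mainly those of hemoglobin, also differed between the crosses. The summed intensity of the 4 erythroid markers on the array was 11189 to 17191 in XmO, 11658 to 16882 in XX_Paf, 5850.2 to 7373 in XpO and 4006 to 6012 in XX_InX. Most of this sum is the hemoglobin gene Hba-a1. Of the 3 tested, Hba-a1 was called higher in XX_Paf than in XX_InX (log2 fold change 1.58, SE 0.22, limma adjusted p = 0.0211). The hemoglobin gene Hbb-b2 had 1.36 (SE 0.24, limma adjusted p = 0.0798) and Alas2 had 0.12 (SE 0.37, limma adjusted p = 0.901). The background differed as well, with the 5 Y-linked genes summing to 123 to 163 in XX_Paf and 187 to 227 in XX_InX. The summed levels of the other cell type and region lists overlapped between XX_Paf and XX_InX: the 8 neuron markers summed to 53069 to 54692 in XX_Paf and 54566.5 to 59134.5 in XX_InX, and the 5 forebrain markers to 4982 to 5696 and 4280 to 5463. The 10 markers of hindbrain and cerebellum summed to 6521 to 8179.6 in XX_Paf and 5944 to 6968 in XX_InX, and the 7 muscle markers to 809 to 3668 and 918 to 1041. Within the list of radial glia and astrocytes, whose sum is mostly Fabp7, 3 of 9 had a limma p under 0.05 before adjustment, against 13.8% of all, and 0 passed. Vim (-1.09, SE 0.49) and Gfap (-0.67, SE 0.24) were lower in XX_Paf without overlap, as 19.5% of all probe sets were, and Glul had 0.48 (SE 0.19). Vim was at 86.1 ± 43.2 in XX_Paf, near the background of those arrays (60.3 to 84.7), and at 164 ± 23.5 in XX_InX. The part of these differences in the Gria2 values was not tested. In whole-brain RNA, fewer cells of a type and less RNA per cell cannot be told apart.

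The proteins that anchor, traffic, edit and feed these receptors were described from 5 lists of 69 genes, of which 29 were on the array and 27 were tested by their brightest probe set. In XO against XX 0 of 27 passed (limma, 0.0115% of all called). Without adjustment, 1 of 27 and 2.60% of all had a limma p under 0.05. Estimates were higher for 16 and lower for 11, with a median of 0.03, and 50.1% of all probe sets had a higher estimate. By the fixed rule the genes of smallest p with a higher estimate were Slc1a6, a glutamate transporter of cerebellar neurons, and the scaffold gene Dlg1. For Slc1a6 the Paf cross had 525 ± 34.6 with 1 X against 453 ± 17.2 with both (n = 3 arrays per group). The In(X) cross had 557 ± 46.2 against 478 ± 33.4 (n = 2 arrays per group), without overlap in either cross (log2 fold change 0.22, SE 0.11). It was the 1 of 27 that separated XO from XX in the same direction in both crosses, as 0.851% of all probe sets did. Dlg1 had 0.24 (SE 0.13). Lower estimates were those of Dlg4, which encodes the postsynaptic scaffold PSD-95 (-0.30, SE 0.13; -0.17 without XpO 18), and of Glud1, the mitochondrial glutamate dehydrogenase gene (-0.30, SE 0.16). That of Glud1 was -0.061 without XpO 18 and -0.54 without XpO 15. Each of these 4 genes had a limma adjusted p of 0.9995 in XO against XX. Within crosses, Dlg4 had -0.48 in XmO against XX_Paf and -0.11 in XpO against XX_InX, and Glud1 had -0.41 and -0.20. In the Paf cross both genes were lower in XmO without overlap, as 6.97% of all probe sets were, and neither passed.

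In XmO against XpO 0 of the 27 passed (limma, 0.0115% of all; without adjustment, 1 of 27 and 4.83% of all had p under 0.05), with 8 estimates higher in XmO and 19 lower and a median of -0.18, beside 50.1% higher and a median of 0.00 over all probe sets. Without overlap, 7 of the 27 were lower and 2 higher, where 8.83% and 8.59% of all were. Of the 15 tested scaffolds and auxiliary subunits 12 had lower estimates. Summed levels of some region and cell type markers differed between the same groups. The 5 forebrain markers summed to 4438 to 5532 in XmO and 6045 to 6162 in XpO, and 4 of them had lower estimates in XmO, 3 without overlap and 2 with p under 0.05 before adjustment. Their median was -0.41 and 0 passed. The neuron markers summed to 52466 to 55930 in XmO and 56318 to 59177 in XpO, the markers of radial glia and astrocytes to 16387 to 17011 and 17070.4 to 18000.3, and those of hindbrain and cerebellum to 6340.3 to 6947 and 5822 to 6161. Like the erythroid sums above, none of these 4 sums overlapped between XmO and XpO. Outside the forebrain list single markers were more mixed: 3 neuron markers had higher estimates in XmO and 5 lower ones. For radial glia and astrocytes 5 were higher and 4 lower, and for hindbrain and cerebellum 4 and 3. The part of these markers in the 27 estimates or in those of the subunits was not tested. Dlgap4, a scaffold-associated protein gene, had an intensity of 1031 ± 43.3 on the XmO arrays (n = 3) against 1313 ± 148 on the XpO arrays (n = 2; -0.35, SE 0.13, limma adjusted p = 0.957), and Homer3, which links metabotropic receptors to the scaffold, had 262 ± 35.5 and 371 ± 99.6 (-0.48, SE 0.23, limma adjusted p = 0.969; -0.20 without XpO 18 and -0.76 without XpO 15). Higher estimates were those of the glutamine synthetase gene Glul (0.32, SE 0.19) and of the kinase subunit gene Camk2b (0.16, SE 0.14; 0.092 to 0.22 with arrays left out in turn). The editing enzyme genes Adarb1, whose product recodes the Gria2 transcript, and Adar had group means of 526 and 399 in XmO, 529 and 402 in XX_Paf, 609.8 and 487 in XpO, and 586 and 459 in XX_InX. Neither passed in any of the 6 comparisons, and the array does not read editing itself. In the remaining comparisons 0 of the 27 passed (limma). Without overlap, 5 of the 27 were lower in XmO against XX_Paf (6.97% of all) and 1 higher. In XpO against XX_InX 5 were higher (11.3% of all) and 1 lower. In XX_Paf against XX_InX 5 were higher (17.6% of all) and 5 lower (19.5% of all). Unadjusted limma p was under 0.05 for 2 (5.53% of all), 0 (3.38% of all) and 4 (13.8% of all) in that order.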

How the data were processed

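The deposited values are linear intensities, 1 for each probe set on each array; the authors' summary algorithm is not given in the sources used here. The trimmed mean was the same on every array, so the deposited intensity values were used as scaled. Control probe sets (66) were left out. Values under the 10th percentile (15) were raised to it and taken to log2, and the 8695 probe sets with a mean at or above the 30th percentile were tested. Python 3.11.15 counted promoter letters.

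limma 3.58.1 in R 4.3.3 fitted 1 mean per group over all 10 arrays (lmFit, eBayes with intensity trend, 6 residual degrees of freedom; tested on simulated data). The 6 two-sided comparisons were each adjusted by Benjamini and Hochberg over all tested probe sets, and called at an adjusted p under 0.05. Values are mean ± SD. Members and lists were chosen with earlier results of these data known. All member probe sets are described. From the lists, the 2 of smallest p per direction in XO against XX and XmO against XpO are named. The 3 genes of pattern most like Gria3 come from root mean square differences of centred log2 values; the same rule for Grin1 could not be applied. Alternatives changed scaling, floor, filter, variance model, arrays fitted, replicate block and each array. The number of arrays limits precision; the labels give no batch.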

Additional observations from a re-analysis of the deposited data

How the results depend on the processing

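No member passed in XO against XX, in either comparison within a cross or in the difference between crosses under any alternative run. In XX_Paf against XX_InX 1 member passed, Gria2 92945_at, when just the groups compared were fitted, and with arrays left out in turn the count ran from 0 to 1 there and in XmO against XpO. Of 827 recomputed fold changes of 45 results, 793 kept their direction and their side of the threshold, 4 gained a call (all Gria2 92945_at) and 30 changed sign, 3 of these without an array being left out. Those 3 were close to 0: Gria3 in XO against XX was at -6.76e-05 as log2 of intensity plus 16 and at -7.90e-04 with the replicate block, and Gria2 92946_f_at in XpO against XX_InX at -0.0092 after quantile normalization. With arrays left out in turn, signs changed in XO against XX for Gria1 92944_at (-0.085 to 0.29), Gria2 92945_at (-0.59 to 0.074), Gria2 92947_s_at (-0.037 to 0.13), Gria3 (-0.12 to 0.12, with exact p from 0.167 to 1), Grin2c (-0.080 to 0.093), Grin2d (-0.51 to 0.039) and Grik2 98864_s_at (-0.057 to 0.062). In XpO against XX_InX they changed for Gria2 92945_at (-0.73 to 0.59), 92946_f_at (-0.11 to 0.11) and 92947_s_at (-0.0037 to 0.32) and for Gria3 (-0.37 to 0.099). In XmO against XpO they changed for Gria2 92945_at (-0.084 to 1.24) and Gria3 (-0.12 to 0.095), and in the difference between crosses for Gria2 92945_at (-1.03 to 0.29). Of the 45 fold changes these 14 changed sign, 21 kept it but moved by over 1.5 times without some array, and 10 stayed within that. The cause was not tested. An arm left with 1 array takes its spread from the other groups.

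Number 1 in the titles is shared by XmO 1, XX_Paf 1 and XX_InX 1, and number 2 by XmO 2 and XX_Paf 2. In the Paf cross, deviations from the group means correlated at -0.0123 for the pair with number 1 and at -0.0415 for number 2. With 2 pairs, these values cannot tell whether arrays share more than the number. With that number as a random replicate block, no count of calls moved (correlation -0.0505). Over all probe sets the counts of calls moved by over 1.5 times without the filter (5 against 1 in XO against XX, 4 against 2 in XmO against XX_Paf, 7 against 1 in XpO against XX_InX, 3 against 1 in XmO against XpO, 5 against 2 in the difference, 17 against 7 in XX_Paf against XX_InX), without the intensity trend in the difference between crosses (0 against 2) and XX_Paf against XX_InX (2 against 7), with a filter at the 50th percentile (1 against 2 in the difference) and with only the groups compared (35 against 7 in XX_Paf against XX_InX). With arrays left out in turn they ran from 1 to 3, 2 to 4, 1 to 4, 1 to 7, 0 to 4 and 2 to 17 in that order. Groups of 2 or 3 arrays limit every interval.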

Other observations

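The genes whose pattern over the 10 arrays lay closest to that of Gria3, among 4723 tested probe sets that varied at least as much, were the matrix protein gene Sparc, the adenylyl cyclase gene Adcy8 and the synaptic complexin gene Cplx2. Their root mean square differences from Gria3 in centred log2 values were 0.116, 0.117 and 0.126, against a median of 0.368 over those probe sets. None of the 3 is X-linked; they lie on chromosomes 11, 15 and 13. Closest genes exist for any pattern over 10 arrays, and this ranking carries no test.

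The subunit probe sets differed in how steady they were within groups. The pooled within-group SD in log2 was 0.07 on Gria2 92946_f_at, smaller than on all but 1.25% of tested probe sets, and 0.10 on Gria1 92943_at (4.73% smaller), while the median over all tested probe sets was 0.23. Gria2 92945_at had 0.39 and Grin2d 0.38, both with the XpO arrays far apart: Grin2d was 2.14-fold higher on XpO 18 than on XpO 15, a gap at least as wide on 6.43% of tested probe sets, and Gria2 92945_at was 2.50-fold higher on XpO 15.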
